A study of Mus musculus with 4 samples.

Results

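The genes of cholesterol and fatty acid metabolism were followed between progenitors and young neurons of the embryonic mouse cortex. The members were the rows of the gene count table whose symbol was 1 of 40 listed names, chosen for their place in sterol synthesis, its regulation, fatty acid synthesis, desaturation, elongation, oxidation and lipid transport. Of the 40 symbols, 39 were matched to 1 row each, among 23240 rows in all, and Hmgcs1 was not analysed here. All 39 members passed the filter on low counts. The samples were 4 RNA-seq libraries of total RNA from cortices at embryonic day 15.5. All embryos came from crosses of heterozygous Nestin-GFP mice with homozygous DCX-mRFP mice and carried both reporters. The Nestin reporter labels progenitors and the doublecortin (DCX) reporter labels newly formed neurons. Cells with green fluorescence were sorted as neural progenitor cells (NPCs, 2 libraries), and those carrying both colours as neurons (2 libraries). The number of embryos behind a library is not given in the labels, and the libraries are called duplicates, so the spread behind each p-value may be a technical one.

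Cholesterol is built from acetyl-CoA through mevalonate, isoprenoid and squalene intermediates, and the embryonic brain makes most of its own once the blood-brain barrier forms. The pathway is controlled by the SREBP transcription factors, which are held in the endoplasmic reticulum by Scap and Insig proteins when sterol is plentiful and which switch on sterol and fatty acid genes when it is scarce. Fatty acids are made by cytosolic synthase, lengthened by elongases and given double bonds by desaturases, while mitochondria break them down in a cycle that is entered through carnitine palmitoyltransferases. In the developing cortex, fatty acid oxidation is known for its role in neural stem and progenitor cells.

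Library totals were 52611800 to 55615100 counts. Levels are in CPM (counts scaled to a common library size, with TMM factors that correct for library composition), and means are ± SD with n = 2. Differences are log2 changes of neurons over NPCs ± standard error, and adjusted p-values come from the quasi-likelihood test of edgeR, adjusted by Benjamini-Hochberg over all 15292 genes tested, with a threshold of 0.05. The sorts were checked against marker lists. Of 8 radial glia markers, 8 were higher in NPCs, and of 8 neuronal markers, 7 were higher in neurons, with Rbfox3 as the exception. The lists include Nes and Dcx, whose promoters name the reporters used for sorting. The NPC libraries also held more RNA of other cells, whose part in the differences between the sorts was not tested. Summed levels of 10 endothelial markers were 272 and 277 CPM in NPCs and 9.67 and 9.36 CPM in neurons, and those of 7 oligodendrocyte precursor markers were 181 and 187 CPM against 2.97 and 3.87 CPM. For 8 pericyte markers they were 227 and 232 CPM against 8.44 and 7.92 CPM, for 10 microglia markers 47.4 and 47.6 CPM against 22.8 and 21.7 CPM, for 8 erythroid markers 2298 and 1891 CPM against 316 and 310.1 CPM, and for 6 astrocyte markers 40.5 and 42.9 CPM against 18.3 and 19.1 CPM. No gene of the endothelial, oligodendrocyte precursor, microglia or astrocyte list was at 0 in both libraries of a group, and globin copies of the erythroid list may share reads. In sorted bulk samples, fewer cells of a type and less RNA per cell cannot be told apart.

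The comparison of neurons with NPCs asks which steps of lipid metabolism differed in expression between the sorted populations. The 7 members of mitochondrial fatty acid oxidation were higher in NPCs, by up to 6.92-fold for Acadl, while enzymes of the later steps of cholesterol synthesis were higher in neurons or did not pass the test, with the largest rise for Fdft1, at 2.01-fold. Of the 39 members, 31 (79.5%) passed the test, where 72.6% of all genes tested did. Those higher in NPCs were 21 (53.8%, against 36.9% of all genes) and those higher in neurons were 10 (25.6%, against 35.8%). Past the test and at 2-fold or more were 9 members (23.1%, against 29.9% of all genes), of which 7 were higher in NPCs (18.5% of all genes were) and 2 in neurons (11.5% of all genes were). The 2 groups of libraries did not overlap for 33 members (84.6%), where the share of all genes was 86%. The median log2 change was -0.16 over the members and -0.02 over all genes tested. The counts moved with the scaling. When libraries were scaled by size alone, the median of all genes moved to -0.23 and the members called became 26 higher in NPCs and 7 in neurons, with 0 of the latter at 2-fold or more. Fdft1 and Lpl, the pair at 2-fold in neurons, lay at that limit, and both were below it with upper-quartile factors and with the 5 CPM filter as well, which left 0 members there.

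**Figure D1:**
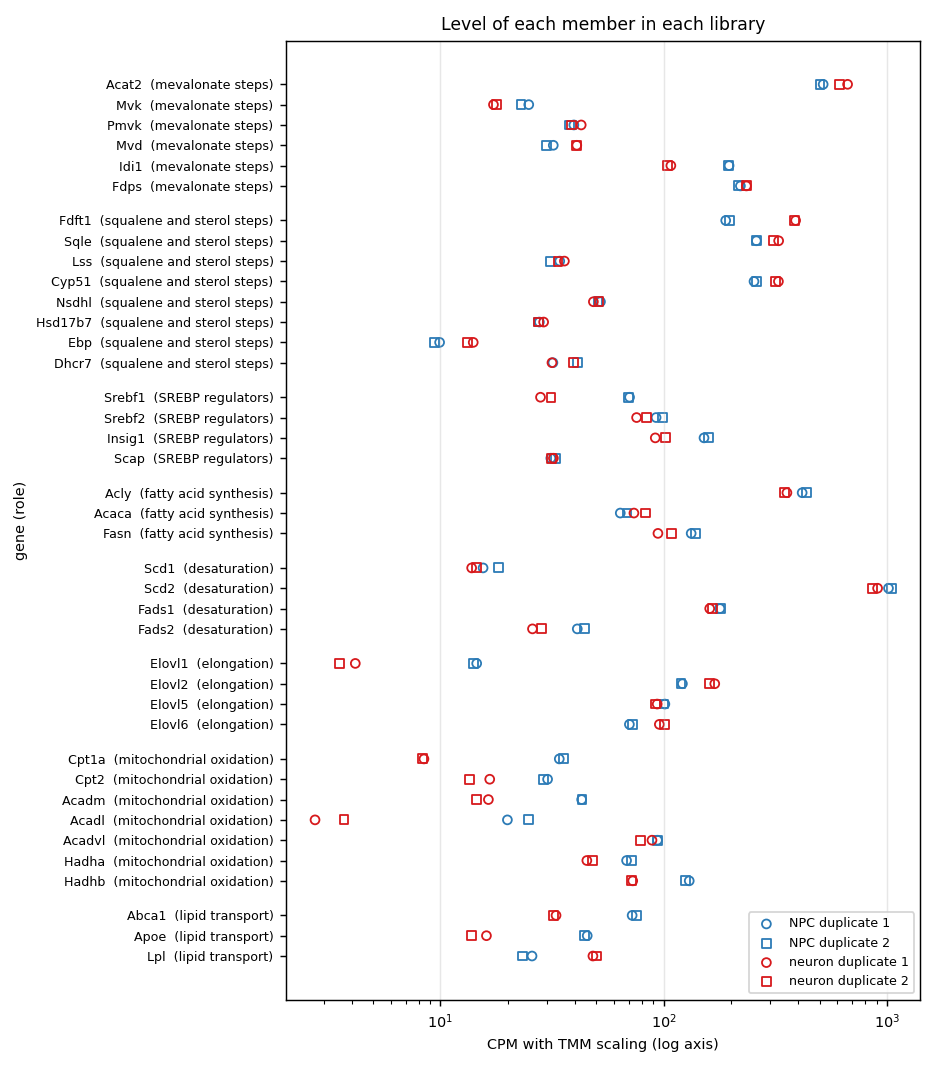
Level of each of the 39 members (vertical axis, with its role) in each of the 4 libraries (horizontal axis, CPM with TMM scaling, log axis). Blue symbols are NPC libraries and red symbols neuron libraries, with circles for duplicate 1 and squares for duplicate 2. Acadl, Cpt1a and Elovl1 show wide gaps with the neuron libraries on the left, and Fdft1 and Lpl show gaps with the neuron libraries on the right.

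**Figure D2:**
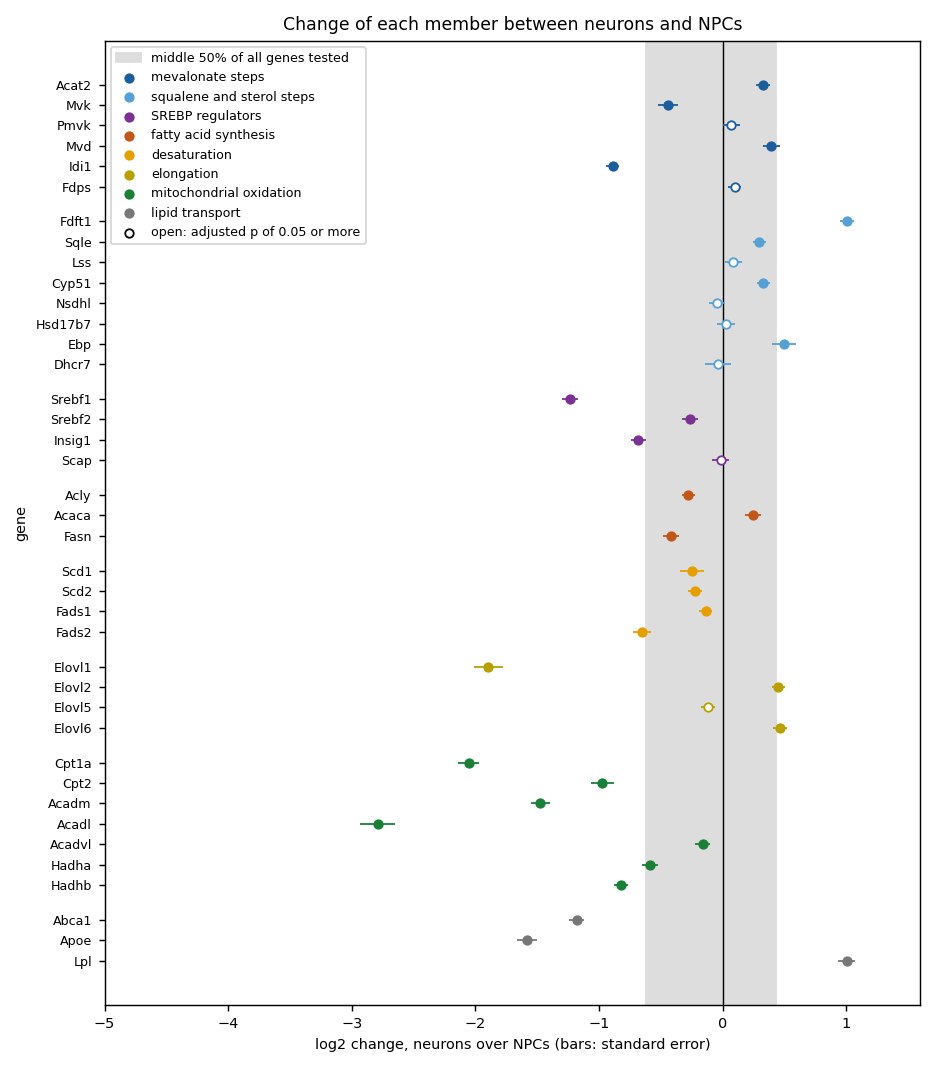
Log2 change of neurons over NPCs (horizontal axis) for each member (vertical axis), with bars for the standard error and colours for roles. Open points did not pass an adjusted p of 0.05, and the grey band holds the middle 50% of all genes tested. The 7 oxidation genes all lie left of 0, from -2.79 for Acadl to -0.16 for Acadvl.

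The first part of sterol synthesis, from acetyl-CoA to farnesyl diphosphate, changed gene by gene. Of 6 members, Acat2 and Mvd were higher in neurons, Mvk and Idi1 were higher in NPCs, and Pmvk and Fdps did not pass. Idi1, which encodes the isomerase of the isoprenoid building blocks, was at 196 and 196 CPM in the NPC libraries against 108 and 104 CPM in the neuron libraries. Both neuron libraries lay well below both NPC libraries, a log2 change of -0.89 ± 0.05 (adjusted p = 1.47e-10), which made Idi1 1.85-fold higher in NPCs. Mvk, the kinase that phosphorylates mevalonate, was at 23.9 ± 1.35 CPM in NPCs against 17.6 ± 0.409 CPM in neurons, a log2 change of -0.44 ± 0.08. Mvd, the decarboxylase that makes isopentenyl diphosphate, was at 32.03 and 29.9 CPM in the NPC libraries against 40.8 and 40.6 CPM in the neuron libraries. Its groups did not overlap, and the log2 change was 0.39 ± 0.07 (adjusted p = 5.97e-05). Acat2, the cytosolic thiolase that joins 2 acetyl-CoA molecules, had the highest level per length of the sterol enzymes, and was at 518 and 501 CPM in the NPC libraries against 666 and 612 CPM in the neuron libraries. The neuron libraries were the higher pair, with a log2 change of 0.33 ± 0.06 (adjusted p = 8.12e-05). This value is uncertain because the near-identical copy Acat3, at 230.3 and 204 CPM in the NPC libraries against 254 and 257 CPM in the neuron libraries, could share its reads, and the call was lost with library size only (0.12, adjusted p = 0.0669).

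Pmvk, the second kinase of the route, was at 39.6 and 37.8 CPM in the NPC libraries against 42.7 and 38.5 CPM in the neuron libraries, and the groups overlapped (log2 change 0.07 ± 0.07, adjusted p = 0.382). Fdps, which makes farnesyl diphosphate, the branch point to sterols and protein prenylation, was at 221 and 217 CPM in the NPC libraries against 235 and 234 CPM in the neuron libraries. Its groups did not overlap, but the difference was small, at 0.10 ± 0.05 with an adjusted p of 0.0957. In GENCODE M21, 77.4% of the exon length of Fdps overlaps the same-strand gene model Gm43738, so its reads may be split. The sign of Pmvk and Fdps turned with upper-quartile factors and with library size only. Summed over the 6 genes, the level was 1031 and 1005 CPM in NPCs and 1110 and 1047 CPM in neurons.

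From squalene onwards, 4 of 8 members (50%) rose in neurons, 0 fell and 4 did not pass. Of all genes, 72.6% passed, with 35.8% higher in neurons and 36.9% higher in NPCs. Fdft1, the squalene synthase that commits the route to sterols, was at 189.6 and 197 CPM in the NPC libraries against 389.9 and 387 CPM in the neuron libraries. The neuron libraries were both far above the NPC libraries, with a log2 change of 1.01 ± 0.05 (adjusted p = 3.00e-11). The change stayed past the threshold under all alternatives tried, from 0.80 with library size only to 1.03 without NPC replicate 2. In the GENCODE M21 annotation, 20.9% of the exon length of Fdft1 overlaps the opposite-strand gene Ctsb. Ctsb was also higher in neurons (log2 change 0.61 ± 0.06), and reads of the pair cannot be told apart without strand, whose use is not given. The other risers were smaller. Sqle, the squalene epoxidase, was at 260.1 ± 0.0763 CPM in NPCs against 319 ± 11.3 CPM in neurons, a log2 change of 0.30 ± 0.05, and its call was lost with library size only (0.09). Cyp51, the lanosterol demethylase, was at 257 ± 4.08 CPM in NPCs against 322 ± 6.18 CPM in neurons, with a log2 change of 0.33 ± 0.05. Ebp, a sterol isomerase, was at 9.65 ± 0.377 CPM in NPCs against 13.6 ± 0.590 CPM in neurons, with a log2 change of 0.50 ± 0.10.

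The remaining enzymes of the late route were near equal between the sorts. Lss, which closes the sterol rings, was at 34.2 and 31.2 CPM in the NPC libraries against 35.9 and 33.6 CPM in the neuron libraries (log2 change 0.09 ± 0.07, adjusted p = 0.285). Nsdhl, a dehydrogenase that removes methyl groups from the ring, was at 52.1 and 50.8 CPM in the NPC libraries against 48.4 and 51.3 CPM in the neuron libraries (log2 change -0.04 ± 0.06, adjusted p = 0.529). Hsd17b7, the ketoreductase of the same step, was at 27.8 and 27.6 CPM in the NPC libraries against 29.0 and 27.5 CPM in the neuron libraries (log2 change 0.03 ± 0.07, adjusted p = 0.741). The groups overlapped for each of these genes. Dhcr7, the last reductase before cholesterol, was at 31.9 and 40.9 CPM in the NPC libraries against 31.6 and 39.3 CPM in the neuron libraries (log2 change -0.04 ± 0.11, adjusted p = 0.76). In both sorts duplicate 2 was the higher library of Dhcr7, and leaving out a library moved its log2 change between -0.21 and 0.15, with a call as higher in NPCs without neuron replicate 2 (-0.20, adjusted p = 0.0137). With library size only, Nsdhl, Hsd17b7 and Dhcr7 passed as higher in NPCs, so that the late enzymes called became 3 higher in NPCs and 3 in neurons.

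Summed over the 8 late enzymes, the level was 859 and 877 CPM in NPCs and 1203 and 1181 CPM in neurons, 1.37 times higher in neurons. A large part of that difference came from Fdft1, with means of 193 CPM in NPCs and 388 CPM in neurons. Its reads may include some of Ctsb. Over all 14 sterol enzymes, 8 (57.1%) passed the test, 6 of them higher in neurons (42.9%) and 2 in NPCs (14.3%), against 35.8% and 36.9% of all genes. The median log2 change was 0.09, and it turned to -0.01 with upper-quartile factors and -0.11 with library size only. Per kilobase of exon in GENCODE M21, the enzymes spanned a wide range of levels in both sorts. Acat2 had 205 CPM per kilobase in NPCs and 256 in neurons, Fdps 150.5 and 161, and Sqle 94.3 and 116, while Lss had 7.01 and 7.45, Hsd17b7 5.49 and 5.59, and Ebp 5.54 and 7.81.

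**Figure D3:**
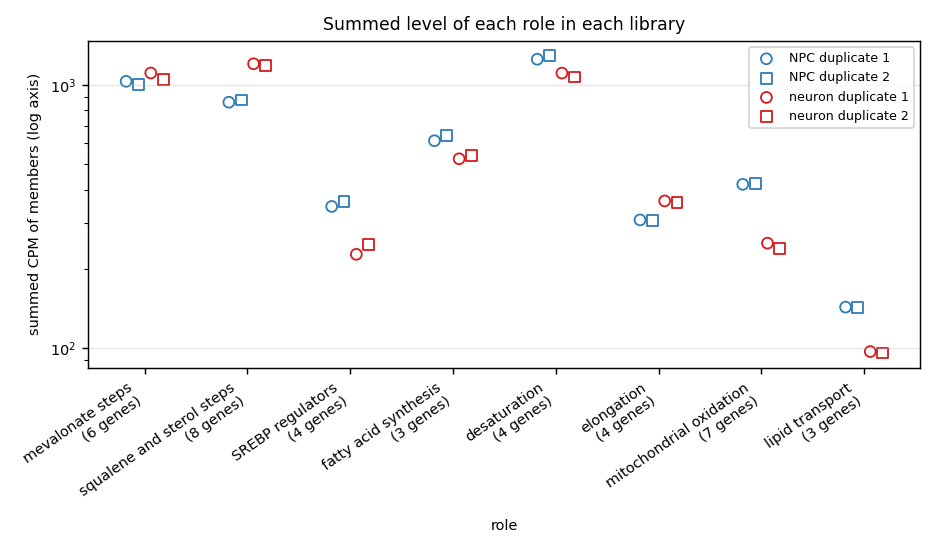
Summed level of the members of each role (horizontal axis, with the number of genes) in each library (vertical axis, summed CPM, log axis). Blue symbols are NPC libraries and red symbols neuron libraries, with circles for duplicate 1 and squares for duplicate 2. Mitochondrial oxidation was at 419 and 423 CPM in NPCs and 251 and 239 CPM in neurons, and the late sterol steps lay the other way.

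Of the 4 members that regulate SREBP activity, Srebf1, Srebf2 and Insig1 fell in neurons and Scap did not pass. For comparison, 72.6% of all genes passed, and 36.9% were called higher in NPCs. Srebf1, whose product acts mainly on fatty acid genes, was at 70.3 and 69.5 CPM in the NPC libraries against 28.1 and 31.3 CPM in the neuron libraries. Both neuron libraries were below both NPC libraries, with a log2 change of -1.24 ± 0.07 (adjusted p = 4.05e-11), or 2.35-fold higher in NPCs. Srebf2, whose product acts mainly on sterol genes, was at 92.5 and 99.0 CPM in the NPC libraries against 75.6 and 84.0 CPM in the neuron libraries, a smaller log2 change of -0.26 ± 0.06 (adjusted p = 0.00138). The ratio of Srebf1 to Srebf2 counts was 0.761 and 0.702 in NPCs and 0.371 and 0.372 in neurons. Insig1, which retains SREBP in the endoplasmic reticulum and is itself an SREBP target, was at 152 and 159 CPM in the NPC libraries against 91.7 and 102 CPM in the neuron libraries. Its groups did not overlap, with a log2 change of -0.68 ± 0.06 (adjusted p = 2.42e-08). Scap, the escort of SREBP to the Golgi, was at 31.2 and 32.8 CPM in the NPC libraries against 32.1 and 31.3 CPM in the neuron libraries, and the groups overlapped (log2 change -0.01 ± 0.07, adjusted p = 0.862). Endothelial and oligodendrocyte precursor markers were higher in the same NPC libraries (medians of -4.77 and -5.89), and their part in these differences was not tested.

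The promoters of 3 genes under SREBP control are shown because they moved differently, with Idi1 and Insig1 higher in NPCs and Cyp51 higher in neurons. The sequences are the 250 bases before the annotated start in RefSeq on GRCm38.p6, 5′ to 3′ on the gene's strand, at chr13:8885356-8885605 (plus strand) for Idi1, chr5:4104698-4104947 (minus strand) for Cyp51 and chr5:28071162-28071411 (plus strand) for Insig1. Capitals mark the NF-Y box CCAAT and the Sp1 box GGGCGG on either strand, which may overlap each other.
Idi1: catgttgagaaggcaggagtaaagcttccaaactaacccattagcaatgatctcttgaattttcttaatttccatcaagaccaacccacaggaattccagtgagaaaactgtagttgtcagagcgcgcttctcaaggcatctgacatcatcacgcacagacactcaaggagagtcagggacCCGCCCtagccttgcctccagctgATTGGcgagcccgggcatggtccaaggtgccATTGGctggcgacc
Cyp51: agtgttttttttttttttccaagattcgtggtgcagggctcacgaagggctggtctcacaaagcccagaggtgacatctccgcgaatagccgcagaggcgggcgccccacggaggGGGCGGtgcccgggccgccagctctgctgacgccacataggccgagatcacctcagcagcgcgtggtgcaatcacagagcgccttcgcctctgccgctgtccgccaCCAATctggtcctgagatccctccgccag
Insig1: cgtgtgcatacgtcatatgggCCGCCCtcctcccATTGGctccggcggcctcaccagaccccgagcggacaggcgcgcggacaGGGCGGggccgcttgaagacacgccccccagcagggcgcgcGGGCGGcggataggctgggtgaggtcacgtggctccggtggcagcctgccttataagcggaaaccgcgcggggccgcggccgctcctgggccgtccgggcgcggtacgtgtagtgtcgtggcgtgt
In the 250 bases, Idi1 held 2 CCAAT and 1 GGGCGG, Cyp51 held 1 of each, and Insig1 held 1 CCAAT and 3 GGGCGG. Of the sterol enzymes, 11 had a promoter in the table, and in the 300 bases that include the first 50 after the start, 10 held CCAAT and 10 held GGGCGG. Among all 32851 promoter windows of that length, 37.4% held CCAAT and 35.7% held GGGCGG. These are shares of windows, while members were counted as genes with the letters in any of their windows. The 2 measures are therefore not alike. For comparison, 1 of 7 oxidation genes held CCAAT (Cpt1a) and 5 held GGGCGG. The sterol regulatory element TCACNCCAC was found in 1.24% of all windows and in 0 of 32 members with a window. Acat2 lacked the CCAAT letters and Pmvk the GGGCGG letters, and the enzymes holding both included genes higher in NPCs, higher in neurons and without a call.

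Among other genes of sterol synthesis and SREBP control, 7 of 13 (53.8%) were higher in NPCs, 5 (38.5%) were higher in neurons and 1 did not pass, against 36.9% and 35.8% of all genes, with a median log2 change of -0.22. Other genes of SREBP control in this list, chosen after their values were seen, went both ways. Insig2, the paralog of Insig1, was at 40.2 and 39.3 CPM in the NPC libraries against 58.8 and 54.8 CPM in the neuron libraries, a rise of 0.52 ± 0.06 on the log2 scale (adjusted p = 1.58e-06). Of the proteases that release active SREBP, Mbtps2 rose (log2 change 0.72 ± 0.08, adjusted p = 4.79e-07) and Mbtps1 fell (log2 change -0.35 ± 0.06, adjusted p = 2.60e-05). Tm7sf2, a sterol reductase, had the highest log2 change among those of at least 5 CPM, at 0.80 ± 0.11, and Tmem97, a sterol-responsive membrane protein, the lowest, at -1.55 ± 0.07. Genes of sterol uptake, efflux and turnover numbered 8 higher in NPCs (47.1%), 5 higher in neurons (29.4%) and 4 that did not pass, with a median of -0.18. In all, 76.5% of that list passed, near the 72.6% of all genes. Vldlr, a lipoprotein receptor that also serves Reelin, was at 36.3 and 37.8 CPM in the NPC libraries against 112 and 107 CPM in the neuron libraries. It had the highest log2 change of this list, at 1.57 ± 0.06, and Scarb1, a receptor for high-density lipoprotein, the lowest among those of at least 5 CPM, at -1.22 ± 0.08.

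Fatty acid synthesis was split. Acly and Fasn were higher in NPCs and Acaca was higher in neurons. Acly, which makes cytosolic acetyl-CoA from citrate, was at 417 and 436 CPM in the NPC libraries against 356 and 347 CPM in the neuron libraries, a log2 change of -0.28 ± 0.05 (adjusted p = 1.95e-04). Fasn, the synthase that builds palmitate, was at 133 and 138 CPM in the NPC libraries against 94.3 and 109 CPM in the neuron libraries, and both neuron libraries were below both NPC libraries (log2 change -0.42 ± 0.06, adjusted p = 2.27e-05). Acaca, the carboxylase that makes malonyl-CoA, was at 63.9 and 68.5 CPM in the NPC libraries against 73.6 and 83.2 CPM in the neuron libraries. The neuron libraries were the higher pair, with a log2 change of 0.24 ± 0.07 (adjusted p = 0.00354). The Acaca call was lost with upper-quartile factors (0.14, adjusted p = 0.0619), with library size only (0.04) and without NPC replicate 1 (0.19, adjusted p = 0.0699).

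All 4 desaturase genes were higher in NPCs, mostly by small amounts, where 36.9% of all genes were called higher in NPCs. The log2 changes of Scd1, Scd2 and Fads1 lay within the middle 50% of all genes tested, from -0.62 to 0.44. Scd2, the stearoyl-CoA desaturase typical of brain, was by far the more abundant of the Scd pair, at 189 CPM per kilobase in NPCs against 3.48 for Scd1. Scd2 was at 1016 and 1049 CPM in the NPC libraries against 908 and 862 CPM in the neuron libraries, a log2 change of -0.22 ± 0.06 (adjusted p = 0.00183). Scd1, the form typical of liver and fat, was at 16.8 ± 1.84 CPM in NPCs against 14.2 ± 0.528 CPM in neurons (log2 change -0.25 ± 0.10, adjusted p = 0.0286). The Scd1 to Scd2 ratio was 0.0153 and 0.0173 in NPCs and 0.0152 and 0.0169 in neurons, with groups that overlapped, and as paralogs they may share reads. Fads2, the desaturase that starts the conversion of essential fatty acids to long polyunsaturated ones, was at 41.0 and 44.2 CPM in the NPC libraries against 25.8 and 28.4 CPM in the neuron libraries. It showed the largest difference of the 4, a log2 change of -0.65 ± 0.07 (adjusted p = 4.89e-07). Fads1, which acts later in the same route, was at 179 and 180.4 CPM in the NPC libraries against 161 and 166 CPM in the neuron libraries (log2 change -0.14 ± 0.05, adjusted p = 0.027). Without NPC replicate 2, the calls of Scd1 (-0.13), Scd2 (-0.20) and Fads1 (-0.13) were lost. Scd1 was also lost without neuron replicate 1 (-0.20) and with DESeq2 (-0.24), and Fads1 without NPC replicate 1 (-0.15).

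The elongases went in opposite directions. Elovl2 and Elovl6 were higher in neurons, Elovl1 was higher in NPCs and Elovl5 did not pass. Elovl6, which lengthens palmitate to stearate, was at 70.2 and 72.3 CPM in the NPC libraries against 95.6 and 101.1 CPM in the neuron libraries, with a log2 change of 0.46 ± 0.06 (adjusted p = 1.47e-06). Elovl2, which acts on long polyunsaturated fatty acids, was at 121 and 119.6 CPM in the NPC libraries against 169 and 159.9 CPM in the neuron libraries, with a log2 change of 0.45 ± 0.05 (adjusted p = 1.18e-06). Both neuron libraries were above both NPC libraries for each of them. Elovl1, which makes very long saturated chains, was at 14.5 and 14.1 CPM in the NPC libraries against 4.16 and 3.55 CPM in the neuron libraries. It was 3.72-fold higher in NPCs, a log2 change of -1.90 ± 0.12 (adjusted p = 2.37e-10). Endothelial markers were higher in the same NPC libraries (median -4.77), and their part in the Elovl1 difference was not tested. Elovl5, which acts on polyunsaturated chains, was at 101.2 and 100.4 CPM in the NPC libraries against 93.5 and 92.3 CPM in the neuron libraries, with groups that did not overlap and a log2 change of -0.12 ± 0.05 (adjusted p = 0.0585). It passed as higher in NPCs with upper-quartile factors (-0.22), library size only (-0.33), the 5 CPM filter (-0.16) and without neuron replicate 1 (-0.12). Within single libraries, the ratio of Elovl2 to Elovl5 counts was 1.198 and 1.19 in NPCs and 1.81 and 1.73 in neurons.

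Among other genes of fatty acid synthesis, elongation, desaturation and activation, 22 of 24 were tested. Of these, 6 were higher in NPCs (27.3%), 6 were higher in neurons (27.3%) and 10 did not pass, with a median of -0.05. The share that passed, 54.5%, was below the 72.6% of all genes. Elovl4, which makes the very long chains of neural membranes, was at 46.7 and 47.6 CPM in the NPC libraries against 112 and 105 CPM in the neuron libraries, the highest log2 change of the list at 1.2 ± 0.06. Mecr, of mitochondrial fatty acid synthesis, had the lowest among those of at least 5 CPM, at -0.59 ± 0.08.

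The 7 genes of mitochondrial fatty acid oxidation were all lower in neurons, where 36.9% of all genes were called higher in NPCs. Their median log2 change was -0.97, and 3 of them (Cpt1a, Acadm and Acadl) differed by at least 2-fold. Cpt1a, the carnitine palmitoyltransferase that admits fatty acids to mitochondria, was at 34.1 and 35.7 CPM in the NPC libraries against 8.44 and 8.35 CPM in the neuron libraries. The neuron libraries were both far below the NPC libraries, a 4.16-fold difference (log2 change -2.06 ± 0.08, adjusted p = 8.70e-13). Cpt2, its partner on the inner membrane, was at 29.6 ± 0.881 CPM in NPCs against 15.1 ± 2.18 CPM in neurons, a log2 change of -0.97 ± 0.09. Acadl, the long-chain acyl-CoA dehydrogenase, was at 19.96 and 24.8 CPM in the NPC libraries against 2.74 and 3.70 CPM in the neuron libraries. This was the largest difference among the members, 6.92-fold higher in NPCs with a log2 change of -2.79 ± 0.14 (adjusted p = 1.40e-11). Acadm, the medium-chain enzyme, was at 43.0 ± 0.0944 CPM in NPCs against 15.5 ± 1.31 CPM in neurons, a log2 change of -1.47 ± 0.08.

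Hadhb, the thiolase subunit of the trifunctional protein, was the most abundant of the 7, at 130.2 and 125 CPM in the NPC libraries against 72.7 and 71.7 CPM in the neuron libraries. Its groups did not overlap, with a log2 change of -0.82 ± 0.05 (adjusted p = 6.52e-10). Hadha, the other subunit of that complex, moved less, at 70.1 ± 2.69 CPM in NPCs against 46.6 ± 1.91 CPM in neurons and a log2 change of -0.59 ± 0.06. Acadvl, the very-long-chain dehydrogenase, was at 93.8 and 93.5 CPM in the NPC libraries against 88.6 and 78.9 CPM in the neuron libraries, a log2 change of only -0.16 ± 0.06 (adjusted p = 0.027). That call was lost with DESeq2 (adjusted p = 0.0593) and without NPC replicate 1 (-0.16), NPC replicate 2 (-0.16) or neuron replicate 2 (-0.07). In GENCODE M21, 45.0% of the exon length of Acadvl overlaps the opposite-strand gene Dvl2, which was also higher in NPCs (log2 change -0.72 ± 0.08). The summed level of the 7 genes was 1.72 times higher in NPCs. All 7 kept their direction under every scaling tried, and 7 of 7 were called under each.

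Other genes of mitochondrial oxidation were mostly higher in NPCs as well. Of 21 tested, 17 (81.0%) were higher in NPCs, 3 were higher in neurons and 1 did not pass, against 36.9% and 35.8% of all genes, with a median of -0.62. The short-chain dehydrogenase gene Acads was at 24.8 and 25.0 CPM in the NPC libraries against 6.51 and 7.52 CPM in the neuron libraries, the lowest log2 change among those of at least 5 CPM, at -1.83 ± 0.10. Acadsb, which encodes a dehydrogenase of branched short chains from amino acids, had the highest, at 0.51 ± 0.06. Cpt1c, a paralog of Cpt1a known from brain, is among the 3 higher in neurons and was picked out after its value was seen. It was at 43.0 and 41.5 CPM in the NPC libraries against 52.1 and 46.1 CPM in the neuron libraries (log2 change 0.22 ± 0.07). Whether its product takes part in mitochondrial oxidation was not tested. The ratio of Cpt1a to Cpt1c counts was 0.793 and 0.861 in NPCs and 0.162 and 0.181 in neurons. Radial glia markers (2947 and 2922 CPM in NPCs against 588 and 610.3 CPM in neurons, median -2.28) and astrocyte, endothelial and oligodendrocyte precursor markers (medians -2.10, -4.77 and -5.89) were higher in the same NPC libraries, and their part in the oxidation genes was not tested.

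**Figure D4:**
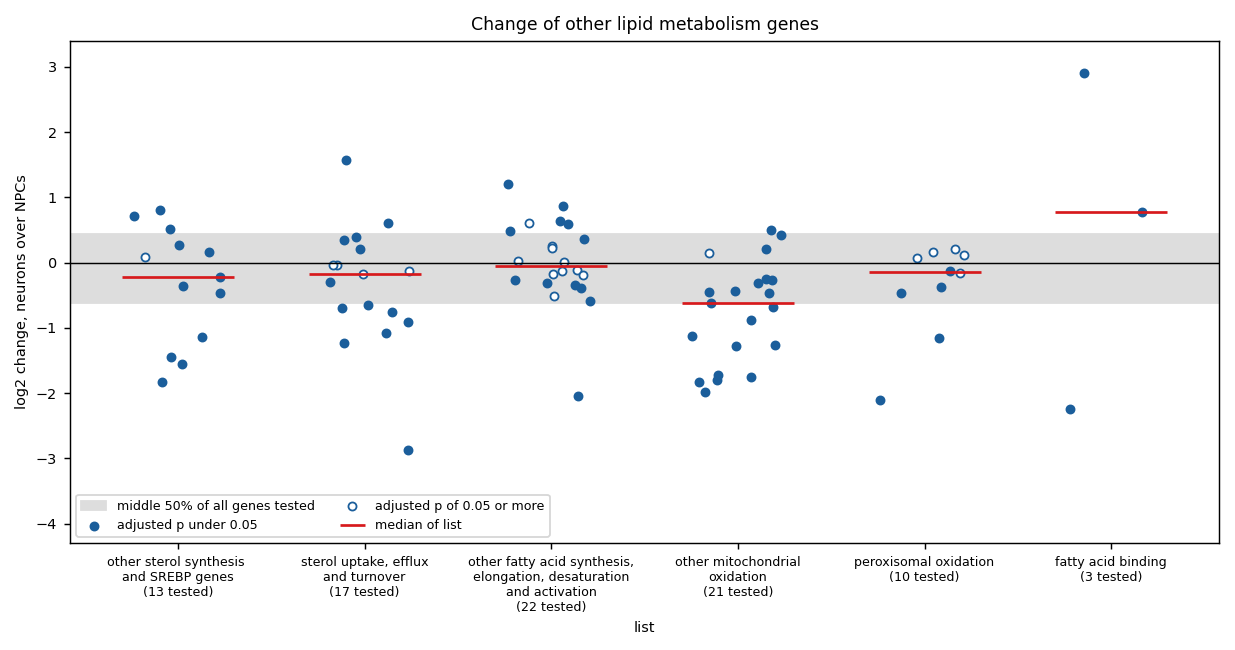
Log2 change of neurons over NPCs (vertical axis) for genes of lipid metabolism outside the members, in 6 lists (horizontal axis, with the number tested). Each point is a gene, filled where it passed an adjusted p of 0.05, the red line is the list's median and the grey band holds the middle 50% of all genes tested. The list of other mitochondrial oxidation genes has the lowest median, at -0.62.

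Lipid transport genes split between the sorts. Abca1 and Apoe were higher in NPCs and Lpl was higher in neurons. Apoe, the main apolipoprotein of brain, known from glial cells, was at 45.5 and 44.0 CPM in the NPC libraries against 16.1 and 13.8 CPM in the neuron libraries. Both neuron libraries were below both NPC libraries, a 3.0-fold difference (log2 change -1.58 ± 0.08, adjusted p = 1.79e-11). Abca1, which loads cholesterol onto lipoproteins, was at 72.2 and 75.6 CPM in the NPC libraries against 32.9 and 32.2 CPM in the neuron libraries, a log2 change of -1.18 ± 0.06 (adjusted p = 2.55e-11). Lpl, the lipase that frees fatty acids from lipoproteins, was at 25.7 and 23.3 CPM in the NPC libraries against 48.2 and 50 CPM in the neuron libraries. The neuron libraries were the higher pair, with a log2 change of 1.00 ± 0.07 (adjusted p = 1.29e-09), which became 0.80 with library size only. Microglia markers, of cells that are also known to express Apoe, were 2.13 times higher in NPCs in summed level (median log2 change -1.28), and endothelial and pericyte markers were higher there too (-4.77 and -4.78). Their part in these differences was not tested.

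The direction of small changes depended on how libraries were scaled. With TMM factors and DESeq2 size factors the median log2 change of all genes was -0.02 and -0.01, and the members called were 10 higher in neurons and 21 in NPCs under both. With upper-quartile factors the median was -0.12 and the counts were 9 and 23. The median of the members moved along with that of all genes, to -0.15 with DESeq2 size factors, -0.26 with upper-quartile factors and -0.37 with library size only. Fdft1, Cyp51, Ebp, Mvd, Elovl2, Elovl6 and Lpl were called higher in neurons under the 4 scalings. Called higher in NPCs under each were Mvk, Idi1, Srebf1, Srebf2, Insig1, Acly, Fasn, Elovl1, Abca1, Apoe, and the desaturase and oxidation members.

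**Figure D5:**
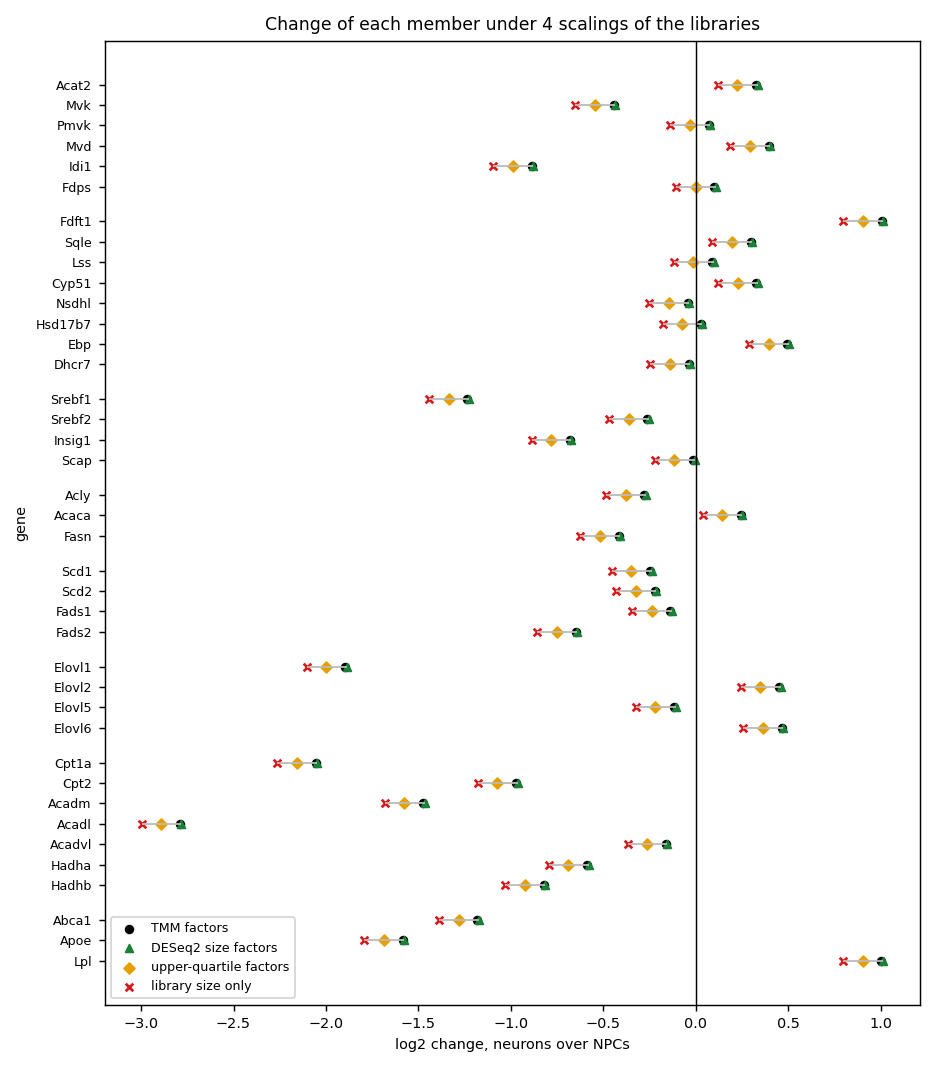
Log2 change of neurons over NPCs (horizontal axis) for each member (vertical axis) under 4 scalings of the libraries, with a grey line joining the values of a gene. Library size only (crosses) lies to the left of TMM factors (circles) for every member, and Pmvk, Fdps, Lss and Hsd17b7 cross 0.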

How the data were processed

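RNA-seq libraries of sorted NPCs and neurons (2 each) were compared. The authors deposited 1 table of estimated counts per gene and library, not scaled between libraries. Build mm9 and the tools TopHat 1.2.0, SAMtools 0.1.18 and CASAVA 1.9 are named in the submitters' processing notes, without their roles. A counting tool, annotation or strand setting was not given in the sources used here, so overlapping genes and near-identical copies are uncertain.

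Counts were rounded, and filterByExpr left 15292 genes and removed 7948 rows. Libraries were scaled with TMM factors (0.928 to 1.08). Neurons were compared with NPCs with edgeR 4.0.16 (R 4.3.3), using its two-sided quasi-likelihood test on all 4 libraries without a block. Standard errors were obtained by dividing a log2 change by the root of its F statistic. The test was checked on simulated counts with few changed genes and the same spread in both groups. These data differ in both respects, so the check does not cover them. Duplicates differed by more than sampling noise (chi-square per gene 4.56 and 14.1) and were kept apart. Alternatives used DESeq2 1.42.0, limma 3.58.1 (voom), other scalings and filters, a block, and leaving out each library.

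The members and lists were chosen with earlier results of these data known. All members are named. Values in every library are given for regulators, transport genes, members that did not pass, and the highest, lowest and most abundant member of each role. In each list of other genes, those with the highest and lowest log2 change past the threshold at 5 CPM or more are named, and 2 others that the rule named are not reported here. Cpt1c, Insig2, Mbtps1, Mbtps2 and the ratios between genes were added after their values were seen. Promoters are from RefSeq on GRCm38.p6 and exon lengths from GENCODE M21, while the counts were made on mm9, so levels per kilobase are approximate.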

Additional observations from a re-analysis of the deposited data

How the results depend on the processing

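Over 39 members and 12 alternatives, 426 of 468 log2 changes kept their direction and their side of the threshold, 15 were no longer past it, 12 were newly past it in the same direction and 15 changed sign, all of the last for members that had not passed. Of those 15, Hsd17b7 with library size only also came past the threshold (adjusted p = 0.031). The members called ranged from 27 to 33 when a library was left out. With the duplicate number as a replicate block, 31 members and 11206 genes were called, with the same 31 members. The numbers are not said to mark a shared litter or day, and the differences between duplicates of the 2 sorts had a correlation of 0.02 over genes. Genes called with at least 2-fold change became 2599 with the filter of 5 CPM, which tested 11371 genes, from 4578. With upper-quartile factors the log2 change became -0.032 for Pmvk, -0.0015 for Fdps, -0.014 for Lss and -0.074 for Hsd17b7. With library size only it became -0.14 for Pmvk, -0.11 for Fdps, -0.12 for Lss and -0.18 for Hsd17b7. Hsd17b7 was at -0.010 with the 5 CPM filter. Leaving out a library gave ranges that crossed 0 for 4 members, from -0.21 to 0.15 for Dhcr7 (0.12 without neuron replicate 1), from -0.079 to 0.0074 for Nsdhl, from -0.0013 to 0.076 for Hsd17b7 and from -0.050 to 0.021 for Scap (0.012 without neuron replicate 2). The cause was not tested. The median standard error over all genes, 0.08, limits what changes of this size can show with 2 libraries a group. With 1 library left in a group, its spread was taken to be that of the other group.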

Other observations

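Lipid genes outside the described routes also differed. Of 3 genes of fatty acid binding proteins, which carry fatty acids through the cytosol, 2 were higher in neurons and 1 in NPCs. Fabp7, a marker of radial glia, was at 844 and 819 CPM in the NPC libraries against 182 and 169.5 CPM in the neuron libraries, a log2 difference of -2.24 ± 0.06 (edgeR adjusted p = 5.55e-15). Fabp3, the form known from heart, was at 2.66 and 2.60 CPM in the NPC libraries against 20.3 and 19.3 CPM in the neuron libraries, a log2 difference of 2.91 ± 0.11 (edgeR adjusted p = 5.15e-13). Fabp5 was also higher in neurons, at 149 and 143 CPM against 219 and 281 CPM.

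Of 10 genes of peroxisomal oxidation, which shortens very long fatty acids, 5 were higher in NPCs, 0 were higher in neurons and 5 did not pass, where 36.9% and 35.8% of all genes were called in those directions. The median log2 change was -0.14. Abcd2, a peroxisomal importer of fatty acids, was at 218 and 221 CPM in the NPC libraries against 101.1 and 95.7 CPM in the neuron libraries (log2 change -1.16 ± 0.05, edgeR adjusted p = 6.57e-12), and Scp2, a sterol carrier protein gene, had the smallest called change, at -0.13 ± 0.05.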
